A study of Mus musculus with 30 samples.

Results

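Keratins are the intermediate filament proteins of epithelial cells, and the keratin gene family was followed here through 30 mouse melanomas grown under the skin. Members are all genes of the deposited table whose symbol is Krt followed by a number and at most 1 letter, which leaves out keratin-associated proteins. The rule found 40 of the 18975 genes in the table. For description they were placed in 7 classes by where each is known to be expressed: 3 basal, 4 suprabasal, 4 stress and wound, 8 inner root sheath and companion layer, 11 hair shaft, 6 simple epithelial and 4 other keratins.

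A keratin filament is built from pairs of a type I and a type II protein, so a cell that makes filaments transcribes genes of both types. In skin, basal keratinocytes make Krt5 with Krt14, cells that leave the basal layer switch to Krt1 with Krt10, and wounded or rapidly renewing epidermis adds Krt6a, Krt6b, Krt16 and Krt17. Hair follicles use further sets for the inner root sheath and for the shaft, single-layered epithelia use Krt8 with Krt18, and melanocytes are not known for keratin filaments.

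B16F10 is a transplanted melanoma line of C57BL/6 origin, and its cells were injected into the flank of female C57BL/6 mice. The hosts were wild type (WT, with the genotype label ARE-del +/+) or heterozygous for ARE-del (HET, ARE-del +/-), an allele of Ifng that lacks an AU-rich element, which lengthens the life of the interferon-gamma mRNA. The allele is in the host cells of a tumor, not in the injected cells. From day 7 the mice received, 2 times a week, control rat IgG2A, anti-PD1 (clone RPMI-14), agonist anti-CD40 (clone FGK115B3) or both antibodies, here called the combination, at 0.25 mg for the 2 active antibodies. WT hosts gave 5 tumors after IgG, 4 after anti-PD1, 3 after anti-CD40 and 3 after the combination. HET hosts gave 4, 3, 4 and 4 in that order. The labels do not say that replicates are separate animals, and p-values here measure only how far these samples scatter, which may in part be technical.

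Libraries held 17.6 M to 36.0 M reads, with a median of 24.9 M. Levels were deposited on a log2 scale as CPM, a unit that divides a gene's reads by the size of its library. Each could be turned back into a whole number of reads, so reads are given below beside CPM. A gene with no read stands at -3.64 on that scale, and 1 read is worth 0.0276 to 0.0596 CPM. HET IgG replicate 2 stood apart, with melanocyte markers summing to 74586 CPM against a median of 36403 over all libraries. The sample labels also carry an L number, from L5 to L8, of unstated meaning. WT tumors fall in L5 and L6 and HET tumors almost all in L7 and L8, so genotype and L number cannot be told apart. Treatment is tied to it as well. All WT IgG tumors are in L5, all WT anti-CD40 and WT combination tumors in L6, and all HET combination tumors in L8. Only WT anti-PD1 holds both L5 and L6, with replicate 4 alone in L6.

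Type I genes lie on chromosome 11 and type II genes on chromosome 15 of the mouse, with Krt18, of type I, beside its partner Krt8 on chromosome 15. That puts 20 members on each chromosome. The row named Krt83 in the deposited table carries the identifier ENSMUSG00000047641, which GENCODE vM21 (mm10) names Krt87. It is called the Krt83 row here, and the other 39 symbols are those of GENCODE.

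Stretches upstream of the transcription start are shown for the follicle keratins, whose genes appeared together in few libraries, and for Krt10 as an epidermal gene. RefSeq promoter windows (GRCm38.p6, from 250 bases before to 50 after the start) were matched for 27 of the 40 keratins. The first set covers the 60 bases before the start, with the letters of a TATA box, TATAAA, in capitals. All 4 lie on the minus strand, Krt25 at chr11:99322952-99323011, Krt71 at chr15:101743098-101743157, Krt73 at chr15:101802361-101802420 and Krt10 at chr11:99389365-99389424.
Krt25: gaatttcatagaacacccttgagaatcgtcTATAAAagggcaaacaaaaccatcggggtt
Krt71: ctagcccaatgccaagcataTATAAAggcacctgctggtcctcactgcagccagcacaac
Krt73: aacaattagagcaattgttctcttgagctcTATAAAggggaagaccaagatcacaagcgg
Krt10: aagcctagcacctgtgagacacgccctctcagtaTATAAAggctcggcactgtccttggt

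The second set covers the bases from 250 to 191 before the start of 4 hair shaft keratins, with CTTTGAA in capitals, letters bound by LEF1, a factor of hair differentiation. These too lie on the minus strand, Krt31 at chr11:100050742-100050801, Krt32 at chr11:100088460-100088519, Krt33b at chr11:100030059-100030118 and Krt34 at chr11:100041745-100041804.
Krt31: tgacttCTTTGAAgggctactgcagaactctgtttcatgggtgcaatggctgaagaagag
Krt32: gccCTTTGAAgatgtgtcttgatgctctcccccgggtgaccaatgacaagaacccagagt
Krt33b: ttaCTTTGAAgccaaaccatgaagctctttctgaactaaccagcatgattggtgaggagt
Krt34: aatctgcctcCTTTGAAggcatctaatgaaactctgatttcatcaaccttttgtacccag

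TATAAA, searched on both strands, stood in 16 of the 27 keratin windows (59.3%), against 13.6% of all 32851 windows. It was found in 7 of 8 inner root sheath and companion windows and in 5 of 6 hair shaft windows. Not every match lay where a TATA box would. Those of Krt72 and Krt84 were on the opposite strand, 203 and 206 bases before the start, and that of Krt42 lay after the start. CTTTGAA stood in 4 of 6 hair shaft windows and in 5.14% of all windows. TGANTCA, the letters of an AP-1 site, stood in 0 of 27 keratin windows and in 7.81% of all. No stress and wound keratin had a matched window, so none of these counts covers that class. The letters were chosen after sequences had been seen and neighbouring keratin genes share ancestry, so these are descriptions of sequence and not of binding.

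The deposited values of the 40 genes in the 30 libraries fell into blocks of libraries rather than blocks of treatment groups. Keratins took 240006 reads in all. Stress and wound keratins made up 40.6% of them, basal keratins 37.2%, suprabasal 8.16%, inner root sheath and companion 5.28%, hair shaft 3.13%, simple keratins 0.46% and the others 5.17%. Over the 23 keratins that passed the filter on low values (log2 above 0 in at least 3 libraries), the median SD across libraries was 2.84 on the log2 scale, against 0.37 for all 15002 genes that passed. The other 17 keratins did not pass, among them Krt7, Krt8, Krt18, Krt19 and Krt20 and 9 of 11 hair shaft keratins. Since a scarce keratin could pass through 3 rich libraries, the 23 are not the family as a whole.

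**Figure D1:**
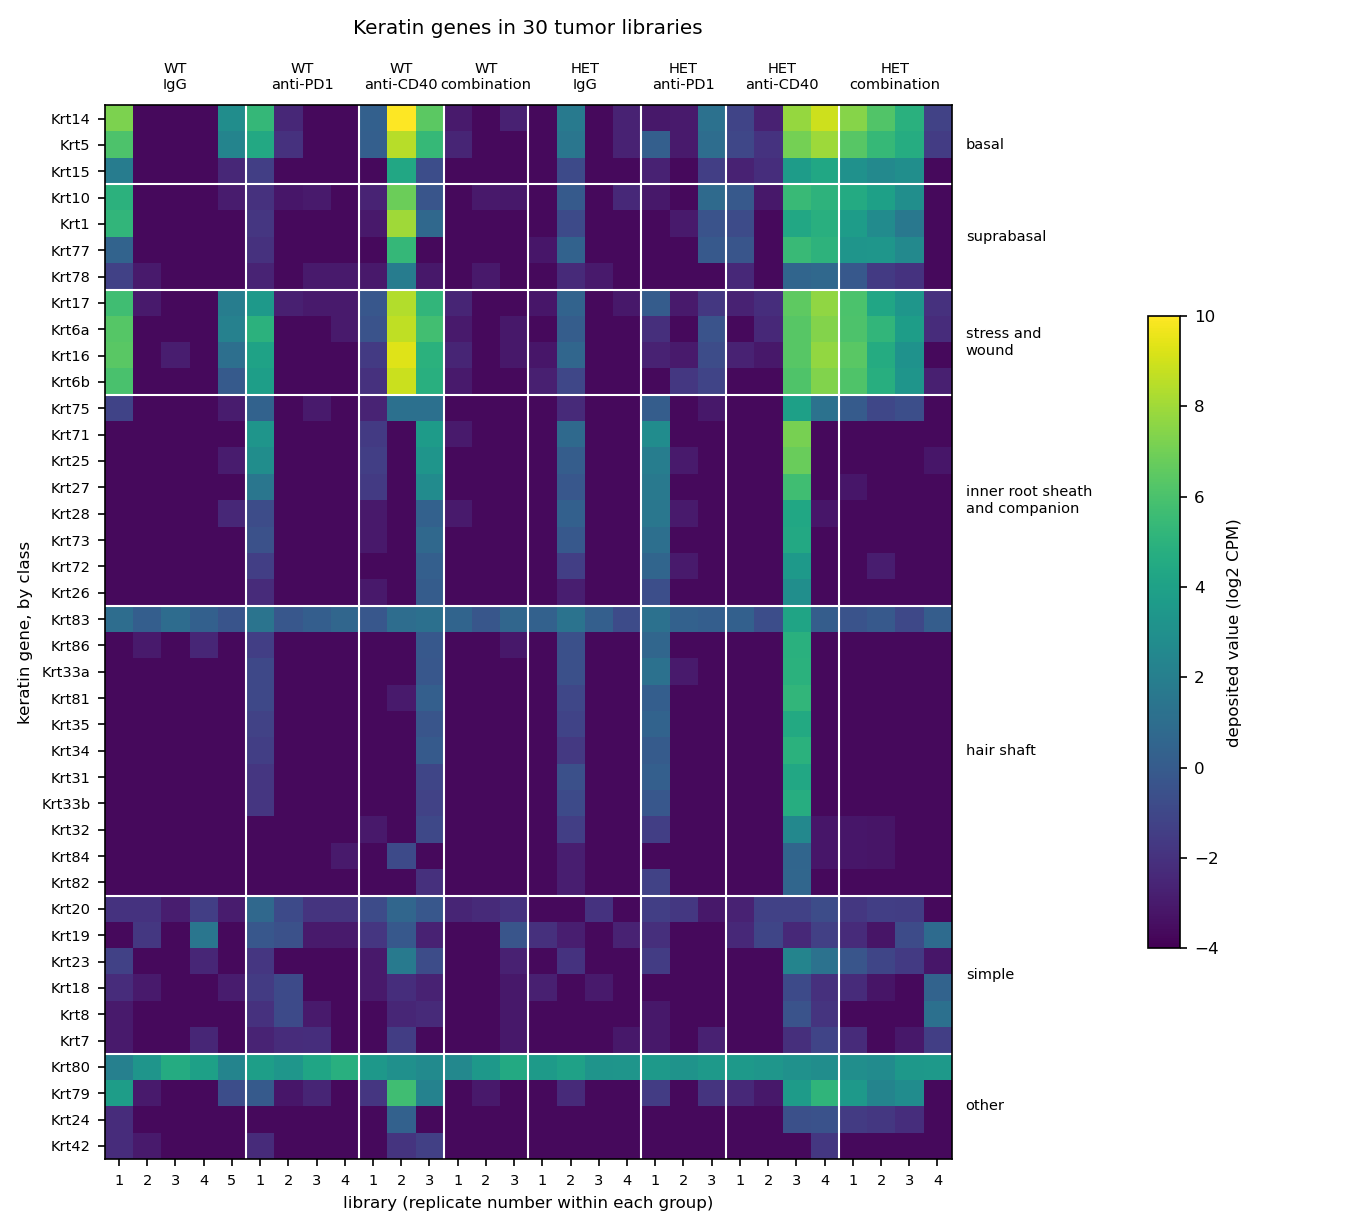
Deposited log2 CPM of the 40 keratin genes (rows, by class) in the 30 libraries (columns, by group, with replicate numbers), on a color scale from -4 to 10. Bright columns such as replicate 2 of WT and replicate 3 of HET anti-CD40 stand beside dark columns of the same group, while the Krt80 and Krt83 rows have reads in every library.

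Among basal keratins, Krt14 is the type I partner of the basal layer. In WT hosts it had 3268, 0, 0, 0 and 135 reads in IgG replicates 1 to 5, 917, 3, 0 and 0 after anti-PD1, 28, 23069 and 2263 after anti-CD40 and 1, 0 and 2 after the combination. HET hosts gave 0, 53, 0 and 2 Krt14 reads after IgG, 1, 1 and 61 after anti-PD1, 10, 2, 5933 and 15309 after anti-CD40 and 5509, 2611, 820 and 10 after the combination. High and near-empty libraries thus stood within WT IgG, WT anti-PD1, both anti-CD40 groups and the HET combination, whereas the 3 WT combination libraries were all near empty. As CPM, the group means were 31.5 ± 66.4 (SD, n = 5) for WT IgG, 398 ± 614 (n = 3) for WT anti-CD40, 176 ± 231 (n = 4) for HET anti-CD40 and 69.1 ± 76.5 (n = 4) for the HET combination. Every one of these SDs exceeded its mean.

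Krt5, the type II partner of Krt14, followed the same libraries. It had 7497 reads in replicate 2 of WT anti-CD40, 7662 and 3662 in replicates 4 and 3 of the HET anti-CD40 group, 2632 in HET combination replicate 1, 1520 in its replicate 2 and 1464 in WT IgG replicate 1, and at most 2 reads in any WT combination library. The log2 values of Krt5 and Krt14 correlated with a Pearson's r of 0.99 (Spearman's rho 0.96) over 30 libraries (permutation p = 1e-05, the smallest that 100000 resamples can give, adjusted p = 1.2e-05 and 1.5e-05 over 6 pairs). Without the 2 libraries farthest from the Krt5 median r was 0.98, and with group means subtracted it was 0.99. Within L5, L6, L7 and L8 it was 1.00, 1.00, 0.95 and 1.00. HET anti-PD1 replicate 1 departed from the pair, with 29 Krt5 reads and 1 Krt14 read. Krt15, a type I keratin of resting basal cells and of the hair follicle bulge, had its highest reads, 645 and 359, in replicates 4 and 3 of the HET anti-CD40 group and 441 in replicate 2 of the WT one.

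Suprabasal keratins mark cells that have begun to differentiate. Krt10, of type I, had 680 reads in WT IgG replicate 1 and at most 1 in the other 4 WT IgG libraries, 4, 1, 1 and 0 after WT anti-PD1, 2, 2409 and 19 after WT anti-CD40 and 0, 1 and 1 after the WT combination. In HET hosts the values were 0, 15, 0 and 3 after IgG, 1, 0 and 46 after anti-PD1, 23, 1, 1213 and 1022 after anti-CD40 and 744, 566, 214 and 0 after the combination. The HET anti-CD40 and HET combination groups therefore each held at least 2 libraries above 500 reads beside one with at most 1 read. Krt1, its type II partner, correlated with it at r = 0.98 (rho 0.87, permutation p = 1e-05, adjusted p = 1.2e-05 and 1.5e-05), and 0.98 without the 2 libraries farthest from the Krt1 median. Within the L numbers that r lay between 0.99 and 1.00. Krt14 with Krt10, a basal with a suprabasal gene, gave r = 0.91 (rho 0.87, permutation p = 1e-05, adjusted p = 1.2e-05 and 1.5e-05), and 0.87 without the 2 libraries farthest from the Krt14 median. Its r within L5, L6, L7 and L8 was 0.77, 0.92, 0.98 and 0.97.

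Basal keratins did not bring suprabasal ones in every library. WT anti-PD1 replicate 1 held 61.8 CPM of basal and 0.646 CPM of suprabasal keratins, and WT anti-CD40 replicate 3 held 130.9 and 2.34 CPM. By contrast, HET combination replicate 2 held 120.1 CPM of basal and 32.6 CPM of suprabasal keratins, and WT IgG replicate 1 held 221 and 70.3 CPM. These sums set libraries side by side for the same genes and do not rank one class above another.

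Stress and wound keratins, induced when epidermis is injured, followed the basal ones. Krt6a had 8502 reads in WT anti-CD40 replicate 2, 5332 and 2197 in replicates 4 and 3 of HET anti-CD40, 2116, 1337, 396 and 4 in HET combination replicates 1 to 4, 1694 in WT IgG replicate 1, 1392 in WT anti-CD40 replicate 3 and 730 in WT anti-PD1 replicate 1. Krt17, a type I keratin of the same setting, peaked at 7041 reads in replicate 2 of WT anti-CD40 and held 6341 in replicate 4 of the HET group. Over 30 libraries Krt6a and Krt17 correlated at r = 0.99 (rho 0.94, permutation p = 1e-05, adjusted p = 1.2e-05 and 1.5e-05), 0.98 without the 2 libraries farthest from the Krt6a median and 0.96 to 1.00 within L numbers. Krt16, the type I partner of Krt6a, reached 13373 reads in WT anti-CD40 replicate 2. The split of reads between Krt6a and Krt6b is uncertain, since 62.0% of the 50-base words of the Krt6a transcript and 50.1% of those of Krt6b also occur in transcripts of other genes, most of them in each other.

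**Figure D2:**
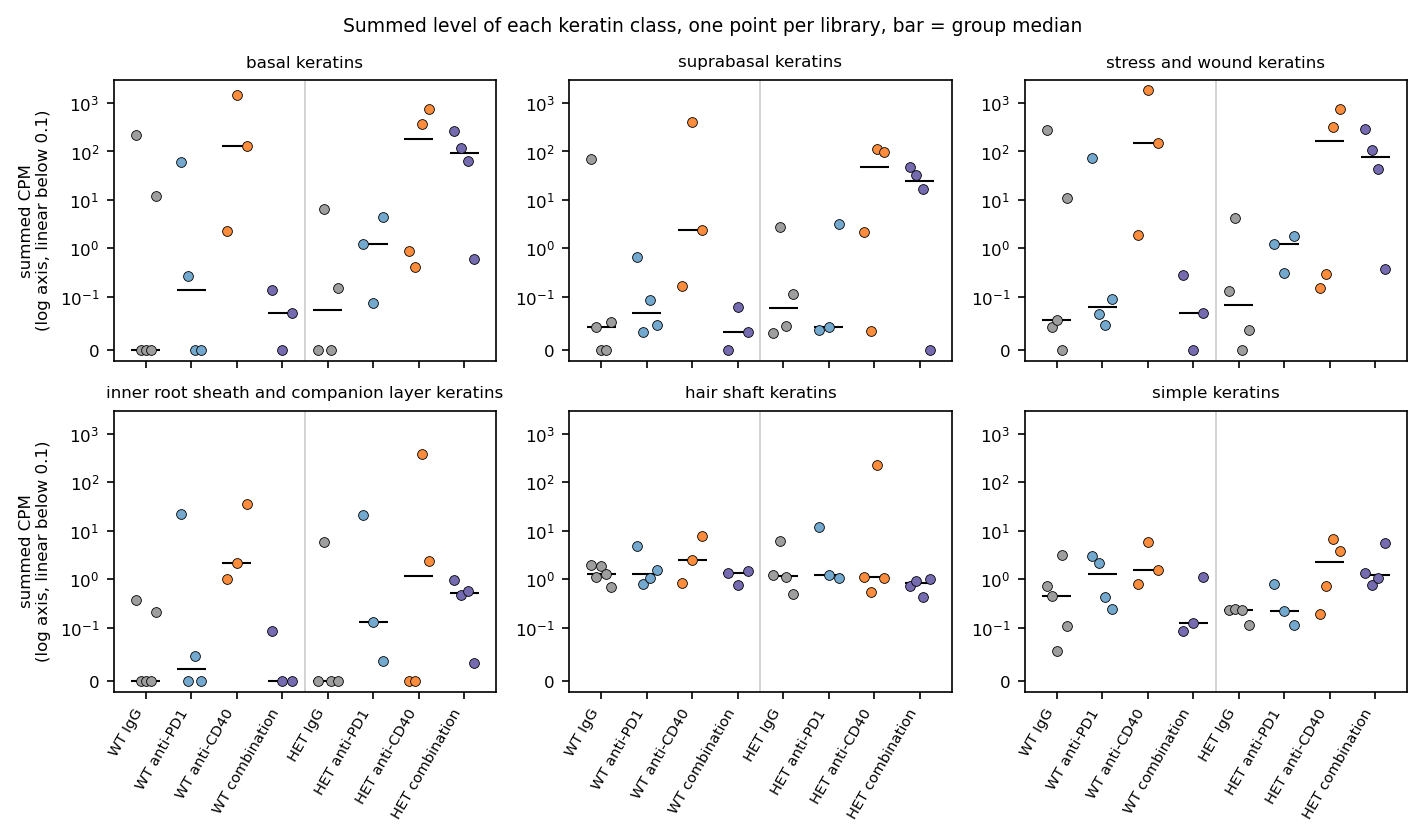
Summed CPM of each keratin class (vertical axis, logarithmic above 0.1) in each library (points) of the 8 groups (horizontal axis), with the group median as a bar. Basal, suprabasal and stress keratins spread widely within the anti-CD40 groups, and HET anti-CD40 replicate 3 stands alone at 380 CPM of inner root sheath and 224 CPM of hair shaft keratins.

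Libraries with epidermal keratins also held other keratinocyte transcripts. The 16 differentiated keratinocyte genes of a list without keratins (loricrin, filaggrin and others) summed to 461 CPM in replicate 2 of WT anti-CD40, 201.2 in replicate 4 of the HET anti-CD40 group and 160.4 in its replicate 3, against a median of 12.1 over all libraries and a lowest value of 6.21. The sum did not follow keratins everywhere. WT IgG replicate 3, without a basal or suprabasal keratin read, reached 50.3 CPM, with 611 Cdsn reads, and keratin-rich HET combination replicate 2 reached 49.0 CPM. The genes most like Krt14 over the 30 libraries were Krtdap, Dsc3 and Col17a1 (r = 0.98 for each), and those most like Krt10 were Lor, Psapl1 and Fat2 (r = 0.98, 0.96 and 0.96). Skeletal muscle genes summed to 645 CPM in replicate 4 of HET anti-CD40 and to 7.76 in replicate 2 of WT anti-CD40, the library with most epidermal keratin. In bulk tumor RNA, fewer keratin-making cells and less keratin RNA per cell cannot be told apart.

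Keratins of the inner root sheath, the sleeve around a growing hair, were found in fewer libraries than the epidermal ones and did not follow them throughout. Krt71, a type II inner root sheath keratin, had 3795 and 327 reads in replicate 3 of the HET and of the WT anti-CD40 group, 229 in WT anti-PD1 replicate 1, 180 in HET anti-PD1 replicate 1, 28 in HET IgG replicate 2, 6 in WT anti-CD40 replicate 1 and 1 in WT combination replicate 1, and none in the other 23 libraries. The 3 libraries with most Krt71 were also rich in Krt14, at 5933, 2263 and 917 reads. The libraries at 0 nevertheless include replicate 2 of WT and replicate 4 of HET anti-CD40, HET combination replicates 1 to 3 and WT IgG replicate 1, all rich in Krt14. HET anti-PD1 replicate 1 showed the reverse, with 180 Krt71 reads beside 1 of Krt14. Krt25, a type I inner root sheath keratin, had 3012 of its 3558 reads (84.7%) in HET anti-CD40 replicate 3.

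Krt75, the keratin of the companion layer that joins the sheaths, was found more widely, with reads in 15 libraries against 7 for Krt71. Replicates 3 and 4 of HET anti-CD40 held 427 and 73 reads, replicates 3 and 2 of the WT group 55 and 46, and 30 were in HET combination replicate 1. The genes most like Krt71 were Krtap8-1, Tchh and Krtap7-1 (r = 0.97, 0.96 and 0.95 over 30 libraries), a choice of gene made after its values were seen. Hair follicle genes other than keratins summed to 249 CPM in HET anti-CD40 replicate 3 against a median of 9.55.

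Hair shaft keratins build the fibre itself, and most of their reads lay in a single library. HET anti-CD40 replicate 3 held 820 of 919 Krt33a reads (89.2%), 798 of 878 Krt86 reads (90.9%), 1025 of 1099 Krt81 reads (93.3%) and 710 of 753 Krt33b reads (94.3%). Next came HET anti-PD1 replicate 1, with 58 Krt33a and 38 Krt86 reads. Division among hair keratins is uncertain, with 43.5% of the 50-base words of Krt81 and 43.3% of those of Krt86 shared with other genes.

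The Krt83 row behaved otherwise and had reads in all 30 libraries, 12 to 495 of them, with a median of 1.11 CPM. The highest library was HET anti-CD40 replicate 3, at 18.2 CPM, and the next was WT anti-PD1 replicate 1, at 2.50 CPM. Of its 50-base words 36.9% occur in other genes. The row was most like 5430421N21Rik (r = 0.84), the listed name of ENSMUSG00000067613, which is the gene now called Krt83.

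**Figure D3:**
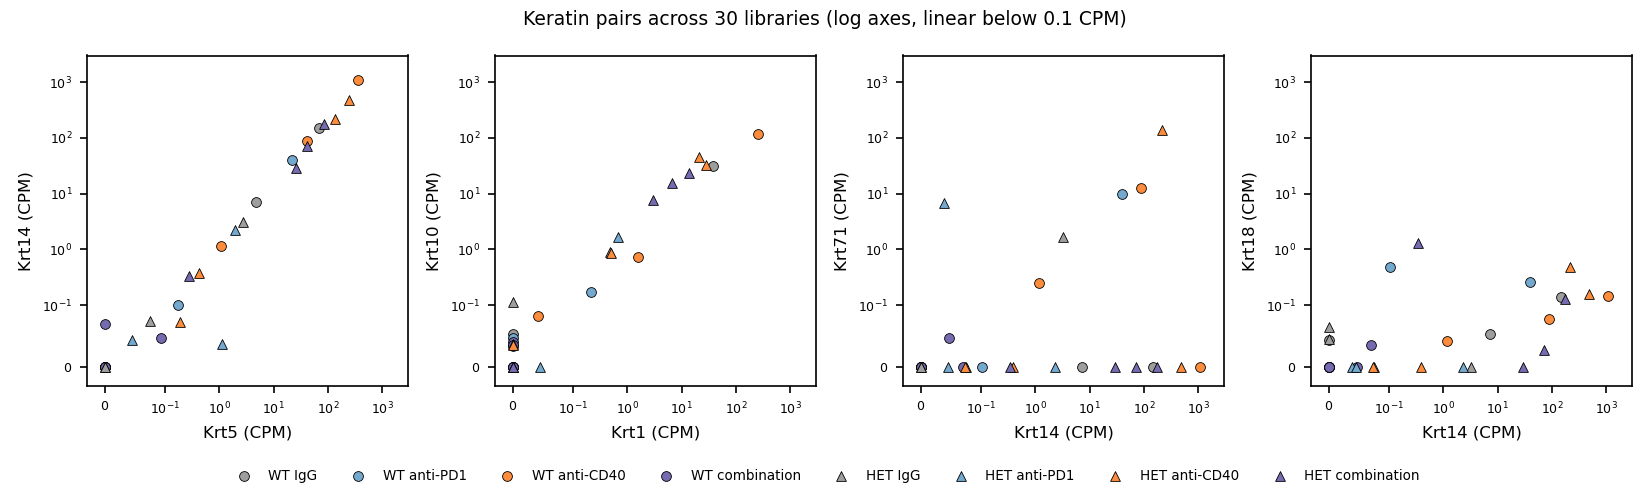
CPM of 4 keratin pairs in 30 libraries (one point each, circles for WT and triangles for HET, colored by treatment, both axes logarithmic above 0.1). Krt5 with Krt14 and Krt1 with Krt10 lie along a line, Krt71 is at 0 in most libraries rich in Krt14, and Krt18 stays below 2 CPM whatever the Krt14 level.

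Simple keratins, those of single-layered epithelia, were scarce. Krt8 had 65 reads in HET combination replicate 4, 18 in HET anti-CD40 replicate 3, 14 in WT anti-PD1 replicate 2 and at most 6 elsewhere. Krt18, its partner, had 39, 13 and 14 reads in the same libraries and at most 6 in the others. HET combination replicate 4 was thus highest for both while holding 10 Krt14 reads. The Krt8 and Krt18 values correlated at r = 0.91 (rho 0.70, permutation p = 1e-05 and 3e-05, adjusted p = 1.2e-05 and 3.6e-05), and at 0.82 without the 2 libraries farthest from the Krt8 median. Within L5, L6, L7 and L8 r was 0.89, 0.75, 0.95 and 0.95, but most libraries hold fewer than 3 reads of either, so the relation rests on few libraries.

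Krt14 with Krt18 gave r = 0.40 (rho 0.54, permutation p = 0.024 and 0.0022, adjusted p = 0.024 and 0.0022). Without the 2 libraries farthest from the Krt14 median Pearson's r no longer passed (0.36, permutation p = 0.056), while Spearman's rho did (0.47, permutation p = 0.012). With group means subtracted r was 0.27 (permutation p = 0.15) and rho 0.41 (permutation p = 0.026). Within L5, L6, L7 and L8 r was 0.47, 0.83, 0.78 and -0.20 and rho was 0.78, 0.725, 0.11 and 0.38. The genes most like Krt18 were Adipoq, Tmem45b and Cidec (r = 0.73, 0.70 and 0.70), of which Adipoq and Cidec are fat cell genes. Krt20, a keratin of intestinal and urothelial surface cells and of Merkel cells, had at most 36 reads, in WT anti-PD1 replicate 1. Krt19 had at most 54, in WT IgG replicate 4, and Krt23 at most 135, in HET anti-CD40 replicate 3.

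Krt80, a type II keratin of many epithelia, was, like the Krt83 row, present in every library, with 90 to 645 reads. Its group means ran from 8.45 ± 2.22 CPM (SD, n = 3) after WT anti-CD40 to 18.0 ± 7.97 CPM (SD, n = 4) after WT anti-PD1, with WT IgG at 11.6 ± 8.30 CPM (SD, n = 5). All 8 ranges overlapped their neighbours in that order. Its SD across libraries was 0.64 on the log2 scale, against 4.72 for Krt14. The genes most like it, looked up after its values were seen, were P4ha2, Tbl2 and L1cam (r = 0.76, 0.73 and 0.71). Krt79, a keratin of the upper follicle and sebaceous duct, went with the epidermal keratins, with 1123 reads in replicate 4 of HET anti-CD40 and 1100 in replicate 2 of the WT group.

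Compared per kilobase of exon over all libraries, Krt14 had the highest mean level of the family (45.1 CPM per kb), followed by Krt16 (25.4), Krt17 (17.9) and Krt5 (15.7). Krt80 stood at 1.82 and Krt71 at 2.61, with 83.1% of Krt71 reads in 1 library. These means are carried by the few rich libraries. On the median over libraries, Krt80 was at 10.5 CPM and Krt14 at 0.22 CPM.

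Each antibody was next set against IgG within a genotype, with a linear model fitted by limma to all 15002 genes that passed the filter. The 3 treatments of a genotype share their IgG libraries, so these comparisons are not independent. After WT anti-PD1, no keratin was called at an adjusted p under 0.05, where 0% of all genes were called. At an unadjusted p under 0.05, limma gave 0 keratins (1.76% of all genes were higher at that level) and voom gave 1 (2.43% of all genes). In this and the later comparisons the limma share counts higher genes only, and the voom share counts both directions. The 23 tested keratins had a median log2 difference of -0.23, with 11 higher and 12 lower, and that of all genes was -0.02. Krt14 was at -0.94 ± 2.59 (SE, adjusted p from limma 1.00). Leaving out WT IgG replicate 1, the only library of that group rich in every epidermal class, moved the median to 0.56, and leaving out WT anti-PD1 replicate 1 moved it to -0.70.

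After WT anti-CD40 keratins had higher means but widely scattered values. Again 0% of all genes were called, and no keratin. At an unadjusted p under 0.05, 4 of 23 keratins were higher (Krt75, Krt17, Krt5 and Krt14) by limma, against 2.72% of all genes, and 0 by voom (3.88% of all genes). The median difference of the 23 was 2.91, and 22 of them were higher, against a median of -0.01 and 48.5% higher over all genes. In this and the other comparisons, many of the 23 share their rich libraries and some passed the filter through them. They are therefore not independent cases. Without the filter, over all 40 keratins, the median was 1.48. Krt14 differed by 5.80 ± 2.82 (SE, adjusted p from limma 0.621) and Krt5 by 5.21 ± 2.50 (adjusted p from limma 0.621). In both genes WT anti-CD40 replicates 1 to 3 overlapped WT IgG, whose replicate 1 lay above 2 of the 3. Without WT anti-CD40 replicate 2 the median was 2.04, and with L number as a term it was 4.39. All WT IgG libraries are in L5 and all WT anti-CD40 ones in L6, so treatment and L number cannot be told apart here. Differentiated keratinocyte genes other than keratins were higher in 16 of 16, with a median of 2.38, beside 6 of 12 skeletal muscle genes (median 0.01) and 6 of 8 leukocyte genes (median 0.36).

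After the WT combination the median of the 23 was -0.64, with 2 higher, 17 lower and 4 equal. No keratin and 0% of genes were called, and at an unadjusted p under 0.05 limma gave 0 keratins (0.213% of all genes higher) and voom 0 (0.36%). Krt14 differed by -2.95 ± 2.82 (SE, adjusted p from limma 1.00). Without WT IgG replicate 1 the median was -0.04, and with L number as a term it was 0.06. Here too the IgG libraries are all in L5 and the treated ones all in L6.

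In HET hosts, anti-PD1 gave a median of 0.62, with 21 of 23 keratins higher, and no call among keratins or all genes (0%). Here too the 23 are not independent cases, and many rest on few reads. Krt14 had 1, 1 and 61 reads, against 0, 53, 0 and 2 after HET IgG. At an unadjusted p under 0.05 limma gave 0 keratins (0.6% of all genes higher) and voom 0 (0.893%). Without HET anti-PD1 replicate 1 the median was -0.02, and without HET IgG replicate 2 it was 1.34.

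HET anti-CD40 tumors had a median of 2.80, with 22 of 23 keratins higher, beside -0.01 over all genes. Without the filter, over all 40 keratins, the median was 1.52. No keratin was called and 0% of genes were. At an unadjusted p under 0.05 limma had 7 keratins higher (Krt79, Krt15, Krt77, Krt75, Krt5, Krt23 and Krt10), against 8.12% of all genes. These 7 share the rich replicates 3 and 4 and are not independent cases. Krt23 passed the filter only through anti-CD40 libraries, at 4.96 and 2.32 CPM in these replicates and 3.21 CPM in WT anti-CD40 replicate 2. Its place among the 7 is therefore no separate support. Voom had 0 (14.5% of all genes, higher or lower). Krt10 differed by 4.26 ± 2.07 (SE, adjusted p from limma 0.336) and Krt14 by 5.29 ± 2.73 (adjusted p from limma 0.352). For both genes replicates 3 and 4 were high and replicates 1 and 2 lay within the HET IgG range. Krt71 differed by 1.58 ± 1.95 (SE, adjusted p from limma 0.699), with reads in 1 of the 4 libraries. Without replicate 3 the median of the 23 was 1.39.

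Genes of other tissues also stood higher after HET anti-CD40. The 12 skeletal muscle genes were all higher, with a median log2 difference of 3.63 (11 at an unadjusted p under 0.05), and the 8 leukocyte genes tested were all higher, with a median of 1.92 (8 at that level), none of them called. Muscle genes summed to between 39.2 and 645 CPM in these libraries and to between 5.08 and 332 CPM after HET IgG. The leukocyte sums were 223 to 1137 CPM and 42.5 to 193 CPM. Differentiated keratinocyte genes other than keratins were higher in 16 of 16, with a median of 2.55. The part of these tissues in the keratin differences was not tested.

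The HET combination had a median of 2.0, with 14 keratins higher and 9 lower. Without the filter, over all 40 keratins, the median was 0.46. Again no keratin was called, and 0% of genes. Limma gave 9 keratins higher at an unadjusted p under 0.05, against 6.46% of all genes, and voom gave 0 (8.96% of all genes). All 3 basal keratins were among the 9, beside Krt6a, Krt6b, Krt17, Krt10, Krt77 and Krt79. Krt14 differed by 6.38 ± 2.73 (SE, adjusted p from limma 0.451) and Krt15 by 4.19 ± 1.67 (adjusted p from limma 0.411). Of the inner root sheath and companion keratins 6 of 7 stood below HET IgG, with a median of -0.82. That rests on HET IgG replicate 2, which held 5.90 CPM of this class, while the other HET IgG libraries held no read of it. Replicates 1 to 3 lay above all HET IgG libraries for Krt14 and replicate 4 did not. With L number as a term the median of the 23 was 1.27. Beside the keratins, 12 of 12 muscle genes were higher (median 3.4), as were 8 of 8 leukocyte genes (median 1.96) and 16 of 16 differentiated keratinocyte genes (median 2.37).

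HET and WT tumors were then compared under each treatment. Under IgG the median of the 23 was -0.28, under anti-PD1 0.41 and under anti-CD40 -0.42. Neither keratins nor any other gene (0%) were called in these 3 comparisons, and limma gave 0 keratins at an unadjusted p under 0.05 in each, as did voom. At that level 0.833%, 0.933% and 3.17% of all genes were higher by limma, and voom had 1.38%, 1.98% and 4.03% of all genes. Each of these medians changed sign when 1 library was left out. They became 0.33 without WT IgG replicate 1, -0.45 without HET anti-PD1 replicate 1 and 0.62 without HET anti-CD40 replicate 2. Under anti-CD40, HET tumors stood higher for 12 of 12 muscle genes (median 4.29) and 8 of 8 leukocyte genes (median 1.61), and for 3 of 16 differentiated keratinocyte genes (median -0.50).

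Under the combination, HET tumors had more epidermal keratin reads than WT tumors, without any call. The median of the 23 was 2.33, with 17 higher, 4 lower and 2 equal, and with L number as a term it was 1.27. Without the filter, over all 40 keratins, the median was 0.23. No keratin and 0% of genes were called, 10 keratins were higher at an unadjusted p under 0.05 by limma against 4.13% of all genes, and voom had 0 (5.19% of all genes). For Krt14 the 3 WT libraries held 1, 0 and 2 reads and the 4 HET libraries 5509, 2611, 820 and 10. The difference was 7.43 ± 2.94 (SE, adjusted p from limma 0.763). For 5 of 23 keratins (Krt5, Krt14, Krt6a, Krt6b and Krt17) all HET libraries lay above all WT libraries, as for 6.76% of all genes. That separation rests on few reads. In that order, HET combination replicate 4 held 8, 10, 4, 2 and 5 reads, against at most 2 of any of them in a WT combination library.

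Genes of other tissues moved in the same comparison. All 12 skeletal muscle genes were higher in HET combination tumors, with a median log2 difference of 4.22, and all 8 leukocyte genes tested, with a median of 1.75. Differentiated keratinocyte genes other than keratins were higher in 16 of 16, with a median of 2.23. By library, muscle genes summed to 121, 77.0, 348 and 184 CPM in HET combination replicates 1 to 4 and to 5.08, 38.2 and 10.2 CPM in the WT ones. Leukocyte genes summed to 377, 239, 782 and 379.8 CPM and to 55.5, 73.4 and 142 CPM. HET combination replicate 4 thus had muscle and leukocyte transcripts with 10 Krt14 reads and no Krt10 read. The part of these tissues in the keratin differences was not tested.

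**Figure D4:**
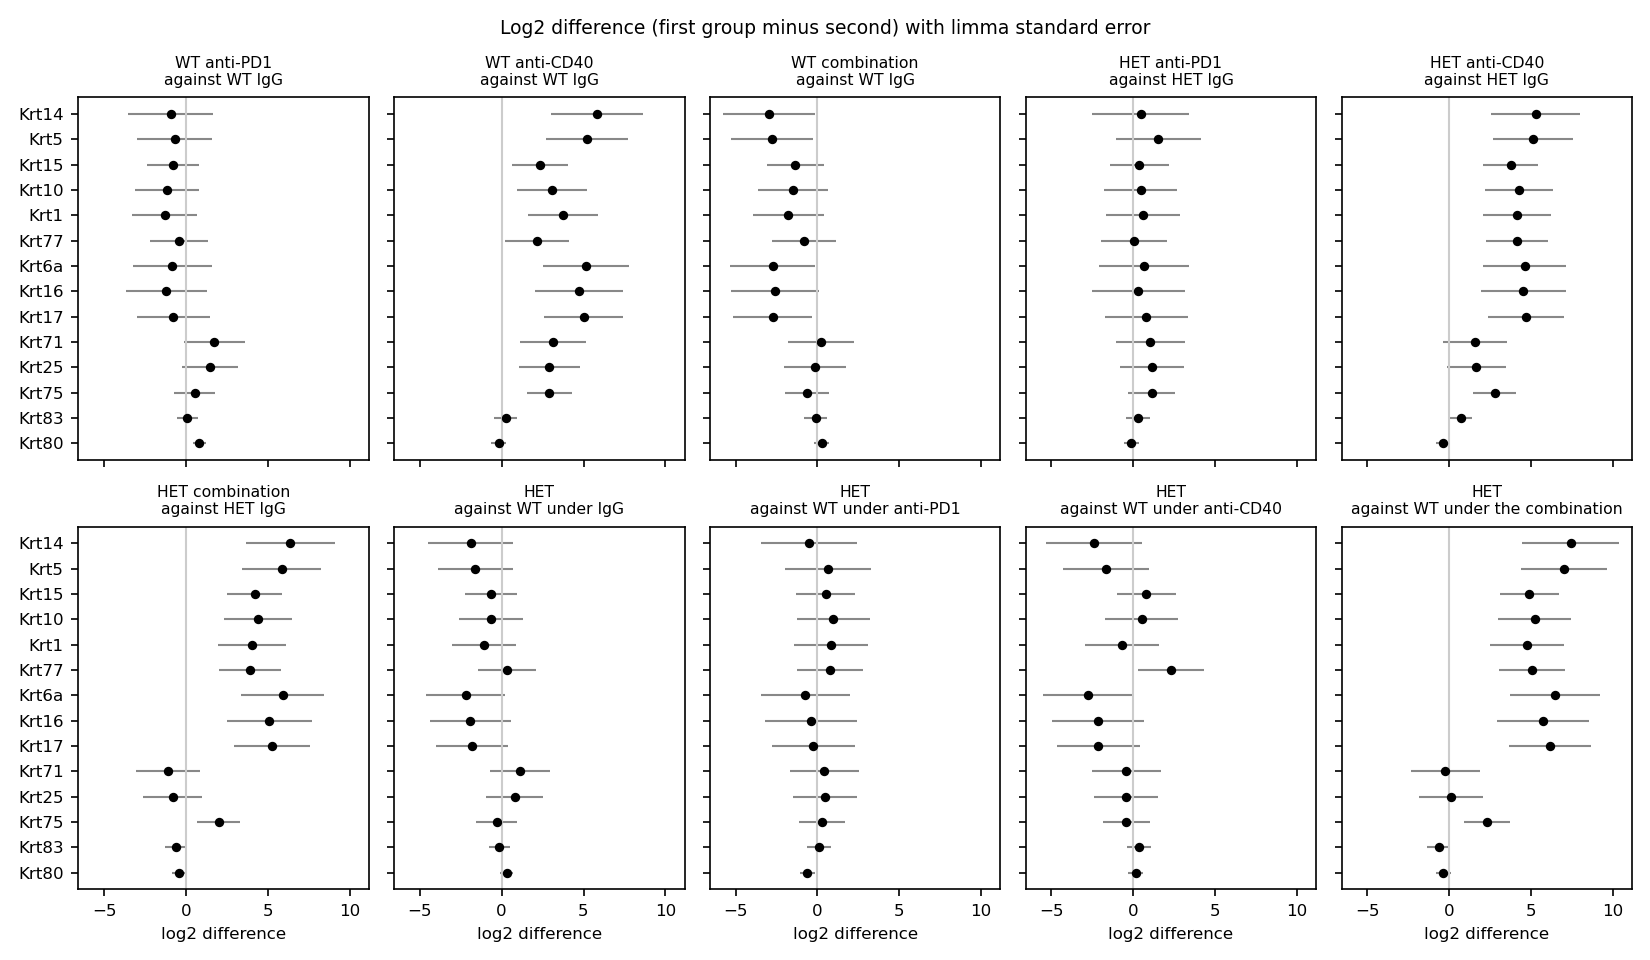
Log2 difference (horizontal axis, first group minus second) of 14 keratins in 10 comparisons, with limma's standard error as bars. The bars of the epidermal keratins are wide, as for Krt14 (7.43 ± 2.94 between HET and WT under the combination), and Krt80 and the Krt83 row lie near 0.

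Ratios of 2 keratins within a library were also recorded, which sets the same pair of genes side by side whatever the total. Of the libraries with at least 20 reads of the pair, Krt10 had 0.835, 0.455 and 0.475 reads for each Krt1 read in WT IgG replicate 1 and WT anti-CD40 replicates 2 and 3. In HET libraries the ratio ran from 1.15 to 2.58, with a median of 2.0 over 8 libraries. The ranges did not overlap. For Krt15 to Krt14 the ratio ran from 0.00619 to 0.0242 in 5 WT libraries and from 0.0421 to 0.262 in 7 HET libraries, again without overlap. WT anti-CD40 replicate 1, with 0 Krt15 and 28 Krt14 reads, gave no ratio on a log scale and is not among the 5. Krt16 to Krt14 had medians of 0.383 in 6 WT and 0.378 in 7 HET libraries, with overlapping ranges. Libraries of all 4 treatments enter here by their keratin reads, and genotype cannot be told apart from L number.

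**Figure D5:**
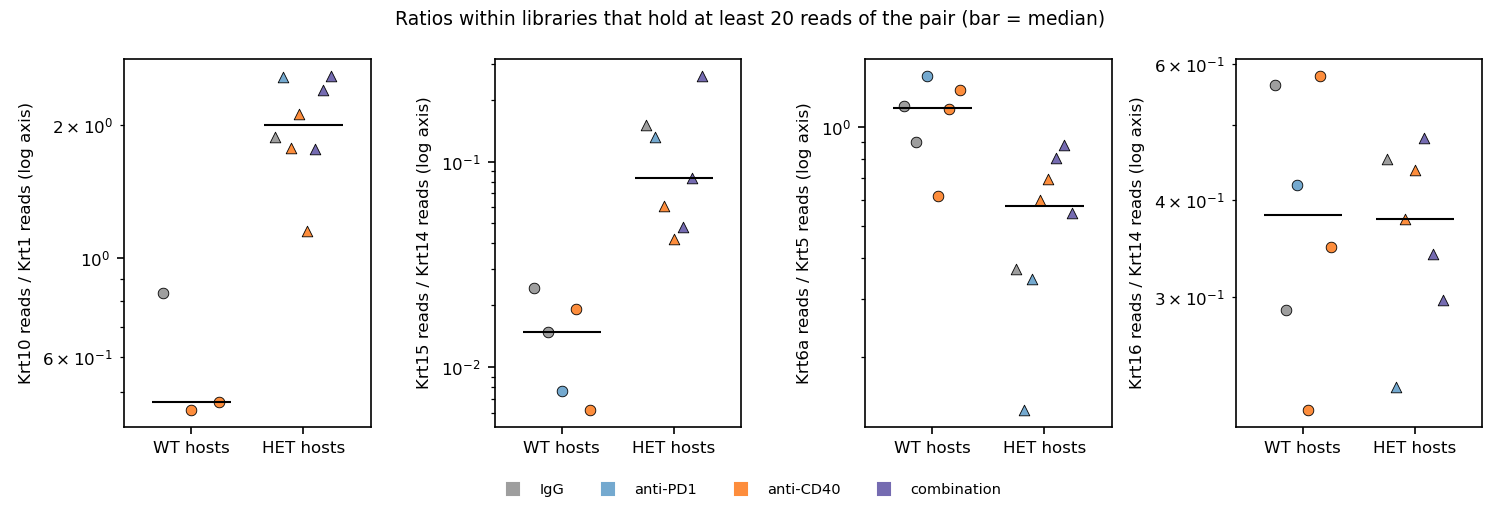
Ratio of reads of 2 keratins within a library (logarithmic vertical axis) for WT and HET hosts, one point per library with at least 20 reads of the pair and reads of both genes, colored by treatment, with the median as a bar. Krt10 to Krt1 and Krt15 to Krt14 separate the WT from the HET libraries, and Krt6a to Krt5 and Krt16 to Krt14 overlap.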

How the data were processed

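The deposited values are log2 CPM made by the authors. The submitters' processing notes name STAR, edgeR and the build mm10, without versions. Strandedness, annotation and the assignment of shared reads are not given in the sources used here. From the values, a prior of 2 reads scaled to library size had been added, and all values (100%) came back to whole reads within 0.01 reads. CPM use the authors' effective library size.

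The members and lists were chosen with earlier results of these data known. The filter kept the 15002 genes that exceeded a log2 of 0 in 3 or more libraries. A model with 1 mean for each of 8 groups was fitted to all 30 libraries with limma 3.58.1 (intensity trend) in R 4.3.3, and p-values were adjusted over all genes kept by Benjamini-Hochberg, with calls at 0.05. The fit was tested on simulated counts that scatter less between libraries than the keratins do, so that test does not cover this family. Correlations use two-sided permutation tests computed with numpy 2.4.6, with p adjusted over 6 pairs. They take 100000 resamples, or every order of the libraries within an L number. The exact permutation tests of the ratios were run in scipy 1.17.1. Alternatives were voom, total-read and median-of-ratios scaling, a prior of 0.5 reads, no filter, L number as a term, a replicate block and leaving out each library. Members named by rule are the 3 of highest mean log2 value in each class, with Krt8 and Krt18, and any called; Krt6b, Krt81, Krt33b and the follicle promoters were named after values were seen. Genes overlapping a keratin on the opposite strand, as at Krt5, Krt6a and Krt10, cannot be told apart from it.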

Additional observations from a re-analysis of the deposited data

Results flagged for a closer look

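Within groups of 4 or 5 libraries, the keratins named by the rule were searched for a library whose gap to the next, divided by the range of its group, passed Dixon's 95% critical value. Such a gap was found in 43 of 115 combinations of gene and group. The nominal rate of 1 in 20, or 5.75, assumes values without ties and cannot be set against that count. Where the other libraries of a group had no read, 1 read alone was enough to pass. Values here are deposited log2 CPM, with the reads of that library, and most of the libraries compared had no read. The genes are not independent, since a few libraries recur.

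WT IgG replicate 1 stood above its group for Krt1 (5.23, 814 reads), Krt10 (4.97, 680 reads), Krt15 (1.89, 79 reads) and Krt77 (0.45, 28 reads). Krt24 (-2.20) and Krt8 (-2.99) also stood out there, but with 3 reads and 1 read. Krt25 in WT IgG replicate 5 (-2.91) rests on 1 read.

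WT anti-PD1 replicate 1 stood above the other 3 libraries of its group for Krt14 (5.31, 917 reads), Krt6a (4.98, 730 reads), Krt16 (4.06, 384 reads), Krt17 (3.53, 267 reads), Krt71 (3.31, 229 reads), Krt25 (2.86, 167 reads) and Krt75 (0.41, 29 reads). At 10 reads or fewer came Krt33a (-0.97), Krt86 and Krt15 (-1.39 each), Krt1 and Krt23 (-1.76 each) and Krt77 (-1.99).

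HET IgG replicate 2, whose melanocyte markers were the highest of all libraries, stood above its group for Krt71 (0.81, 28 reads), Krt16 (0.60, 24 reads), Krt17 (0.48, 22 reads), Krt77 (0.41, 21 reads) and Krt6a and Krt25 (0.13 and 17 reads each). Krt86 and Krt33a (-0.56 each), Krt1 and Krt15 (-0.84 each), Krt23 (-1.95) and Krt75 and Krt79 (-2.33 each) had 10 reads or fewer. Krt20 in HET IgG replicate 3 (-1.93) rests on 4 reads.

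HET anti-CD40 replicate 3 was the only library of its group with reads of Krt71 (7.13, 3795 reads), Krt25 (6.79, 3012 reads), Krt33a (4.92, 820 reads) and Krt86 (4.88, 798 reads). HET combination replicate 4 lay below the other 3 for Krt15, Krt77 and Krt20 (-3.64 each, no read) and above them for Krt8 (1.19, 65 reads) and, on 1 read, Krt25 (-3.14).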

How the results depend on the processing

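No keratin was called under any alternative run in any of the 10 comparisons. The count of all genes called stayed at 0 except when 1 library was left out, where it ran from 0 to 1 for HET anti-PD1 (1 without HET anti-PD1 replicate 2), from 0 to 1 for HET anti-CD40 and from 0 to 6 for the HET combination (the 1 and the 6 without HET IgG replicate 4). The replicate numbers do not pair the samples: in 0 of 10 comparisons did every pair of same-numbered libraries deviate together (r over 0.1), and 4 of 30 libraries correlated best with their own number. With the replicate number as a block, 0 genes were called and the median of the tested keratins was 2.50 for WT anti-CD40, 2.80 for HET anti-CD40, 2.0 for the HET combination and 2.51 for HET against WT under the combination. Without the filter, where all 40 keratins enter, these 4 medians were 1.48, 1.52, 0.46 and 0.23. With L number as a term they were 4.39, 2.77, 1.27 and 1.27, and the median of the WT combination turned from -0.64 to 0.06. For WT anti-CD40 and the WT combination that term rests on WT anti-PD1 replicate 4, the only L6 library of a group that also holds L5. Without the filter the median of WT anti-PD1 turned from -0.23 to 0.27 and that of HET against WT under anti-CD40 from -0.42 to 0.23. Voom and a prior of 0.5 reads each put the median farther from 0, with the same sign, in all 10 comparisons, for example at 3.02 and 3.03 for the HET combination and at -1.44 and -1.21 for the WT combination. Scaling to total reads shifted a library by up to 0.39 on the log2 scale.

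Krt8 with Krt18 kept r = 0.95 within L7 but lost its call (exact permutation p = 0.12), and by Spearman's rho it was also not called within L5 (0.66) and L6 (0.70). Pearson's r of Krt14 with Krt18 lost its call without the 2 farthest libraries (0.36), with group means subtracted (0.27), within L5 (0.47) and within L7 (0.78), and turned to -0.20 within L8. Its rho stayed called in the first 3 of these settings (0.47, 0.41 and 0.78) and not within L6, L7 or L8 (0.725, 0.11 and 0.38). The cause was not tested. A minimum of 100 reads for the ratios, chosen after seeing the data, turned Krt17 to Krt14 from 0.38 to -0.035 on the log2 scale, neither being called.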

Other observations

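The ratio of 2 keratins within a library was compared between genotypes, for 7 pairs and a minimum of 20 reads, both chosen after the values were seen. Two-sided exact permutation tests of the log2 ratio were adjusted over the 7 pairs. Other ratios, such as Krt10 to Krt14, Krt71 to Krt5 and Krt79 to Krt14, had been computed and were not tested. The adjustment therefore does not cover the choice of pairs. Krt15 to Krt14 was higher in HET libraries by 2.85 (7 HET and 5 WT libraries, exact p = 0.0025, adjusted p = 0.018), and every HET library lay above every WT library. Krt10 to Krt1 was higher by 1.80 (8 HET and 3 WT libraries, exact p = 0.012, adjusted p = 0.028), again in every HET library. Krt6a to Krt5 differed by -1.13 (8 HET and 6 WT libraries, exact p = 0.0053, adjusted p = 0.019), with overlapping ranges. The other 4 pairs failed the correction: Krt77 to Krt10 at 2.70 (adjusted p = 0.078 in the exact test), Krt14 to Krt5 at -0.99 (0.13), Krt17 to Krt14 at 0.38 (0.98) and Krt16 to Krt14 at -0.06 (0.96).

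At a minimum of 100 reads, Krt15 to Krt14 (2.60, exact permutation test, adjusted p = 0.028) and Krt6a to Krt5 (-0.75, adjusted p = 0.028) kept their calls, and Krt10 to Krt1 differed by 1.64 (exact p = 0.095, adjusted p = 0.17), with 5 HET and 2 WT libraries, a number that allows no smaller two-sided p. Libraries of the 4 treatments are pooled in each genotype, in unequal numbers. The WT libraries are from L5 and L6 and the HET ones from L7 and L8, so host genotype and L number cannot be told apart, and many Krt6a reads may belong to Krt6b.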
